A study of Mus musculus with 6 samples.

Results

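The muscle ubiquitin ligases Trim63 (MuRF1), Trim54 (MuRF3), Trim55 (MuRF2) and Fbxo32 (atrogin-1, also MAFbx) were examined in embryonic mouse heart ventricles lacking skNAC. Members were all probe sets that the platform annotation assigns to 1 of these symbols alone, whatever their signal. This gave 5 probe sets of 45101 on the array, for 3 of the 4 genes: 1 for Trim63, 1 for Trim54 and 3 for Fbxo32. Trim55 was not analysed here.

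The knockout group was 3 arrays of E11.5 ventricle from mice with a targeted deletion of skNAC, the long muscle isoform made from the Naca gene. Its littermate controls were 3 arrays of wild-type ventricle at the same stage, and the strain label of both genotypes is 129SvEv. The labels place embryonic death with heart defects by E12.5, and they do not say whether an array held 1 embryo or several, so p-values measure the spread between these samples, which may be technical. Arrays are named by genotype and title number: knockout 1, 26 and 66, and wild-type 13, 23 and 57. The labels name no agent and no cell type to which the deletion was limited.

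Ubiquitin ligases choose which proteins receive ubiquitin, the tag that sends many of them to the proteasome. The MuRF proteins are RING finger ligases of the TRIM family that bind sarcomere components and each other. Atrogin-1 is the F-box subunit that brings substrates to an SCF (Skp1, Cullin 1, F-box) ligase. In adult muscle, Trim63 and Fbxo32 are known as genes whose transcripts increase in atrophy, driven by FoxO transcription factors and restrained by insulin and IGF signalling through Akt. In the heart, both act in the turnover of contractile proteins and limit growth of the myocyte.

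Promoter sequences of 2 of the 4 genes were found in the RefSeq promoter table (GRCm38.p6, the C57BL/6J reference and not the strain studied). They are shown because the FoxO link is the best known input to this family. Each run gives the 250 bases before the annotated start, 5′ to 3′ on the plus strand, with Trim63 at chr4:134314870-134315119 and Trim54 at chr5:31116362-31116611. Capitals mark a FoxO core (TGTTTAC), an E-box (CANNTG) or a TATA element (TATAAA), each searched on both strands, and no matches overlapped.
Trim63: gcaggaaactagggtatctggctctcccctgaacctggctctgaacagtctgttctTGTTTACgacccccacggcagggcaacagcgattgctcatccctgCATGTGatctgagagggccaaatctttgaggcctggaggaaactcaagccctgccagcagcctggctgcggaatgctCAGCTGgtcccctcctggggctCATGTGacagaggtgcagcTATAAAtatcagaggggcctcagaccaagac
Trim54: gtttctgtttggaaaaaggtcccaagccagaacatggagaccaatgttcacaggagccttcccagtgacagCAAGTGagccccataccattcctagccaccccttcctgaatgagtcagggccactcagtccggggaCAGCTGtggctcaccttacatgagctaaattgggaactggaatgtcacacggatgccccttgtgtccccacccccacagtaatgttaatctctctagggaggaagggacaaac

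The Trim63 window held 1 FoxO core, 194 to 188 bases before the start, together with 3 E-boxes and 1 TATA element. The Trim54 window held 2 E-boxes and neither of the other elements. Among 32851 promoter entries of the same length, 3.17% held the FoxO core, 66.2% an E-box and 12.4% the TATA element. The MEF2 site and the CArG box of SRF, searched by their consensus, were in neither window and in 0.508% and 1.47% of all entries. These are matches of letters only.

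Values are linear MAS5 signals, a relative scale set within each array. In a bulk sample, fewer cells of a type and less RNA per cell cannot be told apart. Array medians lay between 92.0 and 113.9. Knockout 66 stood apart on the first principal component (38.7% of the variance), at a score of 55.9 where the other 5 arrays lay between -24.7 and 4.79, so results are given with and without it where it matters. The 3′ to 5′ signal ratio of the actin control was 2.49 to 2.57 in knockout and 2.05 to 2.24 in wild-type, and that of Gapdh was 1.28 to 1.45 in knockout and 1.12 to 1.20 in wild-type. Neither ratio overlapped between genotypes, and the part of RNA quality in the results was not tested. The brighter of 2 Naca probe sets read 9047.3, 9033.7 and 8594.6 in knockout against 8385.4, 8565.7 and 8285.5 in wild-type. Whether its probes lie in the deleted part is not stated, so it does not check the labels. All 9 ventricular cardiomyocyte markers passed the filter described next, Myl2 and Irx4 among them. Their summed signal, which the brightest markers dominate, was 68065 to 78052 in knockout and 63977 to 70232 in wild-type. Their log2 differences, fitted as described next, were above 0 in 5 and below 0 in 4, with a median of 0.02. Of 14 skeletal muscle markers, which matter here because these ligases are also genes of skeletal muscle, 5 passed. They were the contractile protein genes Tnni2, Mylpf and Tnnt3 and the myogenic factors Myod1 and Pax3. Means were lower in knockout for Tnni2 (701 ± 185 in knockout, 740 ± 88.9 in wild-type), Mylpf (262 ± 41.8 in knockout, 315 ± 45.1 in wild-type) and Myod1 (171 ± 32.96 in knockout, 183 ± 76.7 in wild-type, SD, n = 3 each). They were higher in knockout for Tnnt3 (194 ± 139 in knockout, 130 ± 36.4 in wild-type) and Pax3 (159 ± 8.19 in knockout, 134 ± 20.5 in wild-type). Tnnt3 read 352.6 on knockout 26. The 9 that did not pass include Myog, Myf5, Myf6 and Pax7. The part of skeletal muscle cells in the ligase signals was not tested.

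The genotypes were compared on log2(signal + 16) in limma, fitted to the 22518 probe sets whose mean log2 value over the 6 arrays, taken back to signal, lay above the median of all, 95.2. Differences are knockout minus wild-type ± SE and understate the change of dim genes. With the Benjamini-Hochberg adjustment at 0.05, 0 of 22518 probe sets were called (0%), while 1083 (4.81%) had an unadjusted p under 0.05. Of the members, 0 of 5 were called and 0 of 5 had an unadjusted p under 0.05. The genotypes overlapped in 5 of 5 member probe sets, and they did not overlap in 10.5% of all tested.

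Trim63, the ligase MuRF1 that ubiquitinates thick filament proteins, had the smallest standard error of the 5 member probe sets. It read 1138.2, 1265.6 and 1251.6 in knockout 1, 26 and 66, against 1389.7, 1314.5 and 1148.6 in wild-type 13, 23 and 57. Knockout 1 was the lowest array and wild-type 13 the highest, while wild-type 57 lay below the other 2 knockout arrays. The means were 1218 ± 69.9 in knockout and 1284 ± 123 in wild-type (SD, n = 3 each). The log2 difference was -0.07 ± 0.12 (95% interval -0.33 to 0.19, adjusted p in limma 0.983). On the fold scale that interval runs from 0.794 to 1.14, so a change beyond those bounds lies outside it. The highest array read 1.11 times the lowest in knockout and 1.21 times in wild-type.

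Trim54, the ligase MuRF3 that is known to associate with microtubules and the Z-disc, was measured near the array median. It read 105.2, 173.1 and 59.8 in knockout 1, 26 and 66, against 117, 136.6 and 111.6 in wild-type 13, 23 and 57. The knockout arrays held both extremes, knockout 26 above all wild-type arrays and the other 2 below them. The means were 113 ± 57.0 in knockout and 122 ± 13.2 in wild-type (SD, n = 3 each), and the highest array read 2.89 times the lowest in knockout and 1.22 times in wild-type. The log2 difference was -0.19 ± 0.34 (95% interval -0.93 to 0.55, adjusted p in limma 0.983). Its size and sign moved with single knockout arrays: it was 0.14 without knockout 66 and -0.52 without knockout 26. On the fold scale the interval runs from 0.524 to 1.46.

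**Figure D1:**
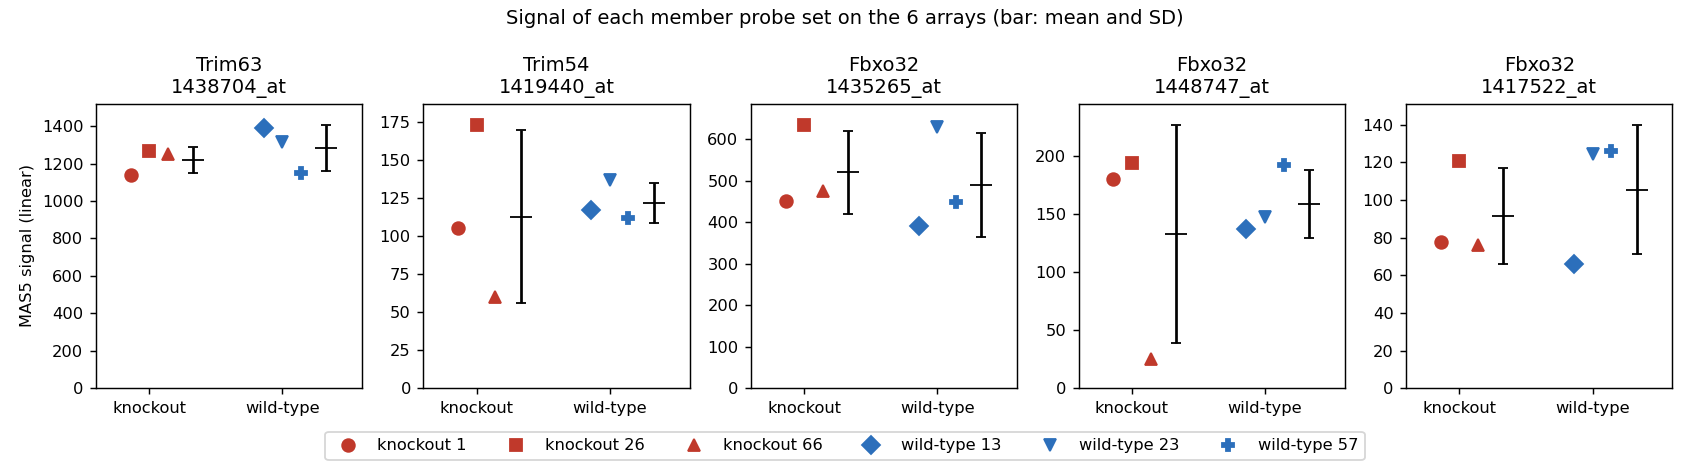
Linear MAS5 signal (vertical axis, from 0, a separate scale per panel) of the 5 member probe sets in the 3 knockout arrays (red) and the 3 wild-type arrays (blue), with the mean and SD of each genotype as a black bar. Trim63 lay between 1138.2 and 1389.7 on all 6 arrays, while knockout 66 read 24.8 on 1 Fbxo32 probe set where the other arrays read 137.1 or more.

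Fbxo32, the substrate-binding subunit atrogin-1, had 3 probe sets, and these did not point the same way. The brightest, 1435265_at, read 450.8, 634.6 and 474 in knockout 1, 26 and 66, against 389.5, 629.5 and 449.3 in wild-type 13, 23 and 57. The spread lay within the genotypes: knockout 26 and wild-type 23 were both high and almost equal, and the other 4 arrays read 474 or less. The means were 520 ± 100 in knockout and 489 ± 125 in wild-type (SD, n = 3 each). The log2 difference was 0.10 ± 0.20 (95% interval -0.34 to 0.53, adjusted p in limma 0.984). It turned to -0.05 when either knockout 26 or wild-type 13 was left out, and it was 0.29 without wild-type 23 and 0.19 without knockout 1. Atrial markers above the filter were, on average, also highest on knockout 26 and wild-type 23. Their mean log2 deviation from the 6-array mean was 0.31 and 0.51 there, and -0.28 to -0.09 on the others. Of these markers, Myl7 was not high in wild-type 23. The part of atrial cells in the Fbxo32 signal was not tested.

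The probe set 1448747_at read 180.3, 194 and 24.8 in knockout 1, 26 and 66, against 137.1, 147.5 and 191.9 in wild-type 13, 23 and 57. A single array, knockout 66, lay far below the rest, and the other 2 knockout arrays were among the 3 highest. The log2 difference was -0.54 ± 0.52 (95% interval -1.69 to 0.61, adjusted p in limma 0.975). Without knockout 66 the sign turned, to 0.23, and with array quality weights it was 0.07. Without knockout 26 it was -0.95, the lowest of the 15 alternatives that gave a value.

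The dimmest, 1417522_at, read 77.5, 120.8 and 76.2 in knockout against 65.8, 124.6 and 126.3 in wild-type. Each genotype had both low and high arrays, and all knockout arrays lay within the wild-type range. It is annotated to the same transcript record as 1448747_at. Its log2 difference was -0.16 ± 0.33 (95% interval -0.88 to 0.56, adjusted p in limma 0.984). This probe set only just passed the filter, at a level of 95.6 against 95.2, and without wild-type 13 its difference was -0.42. When the 3 Fbxo32 probe sets were averaged on the log2 scale, the gene's difference was -0.20 ± 0.28, opposite in sign to that of the brightest.

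**Figure D2:**
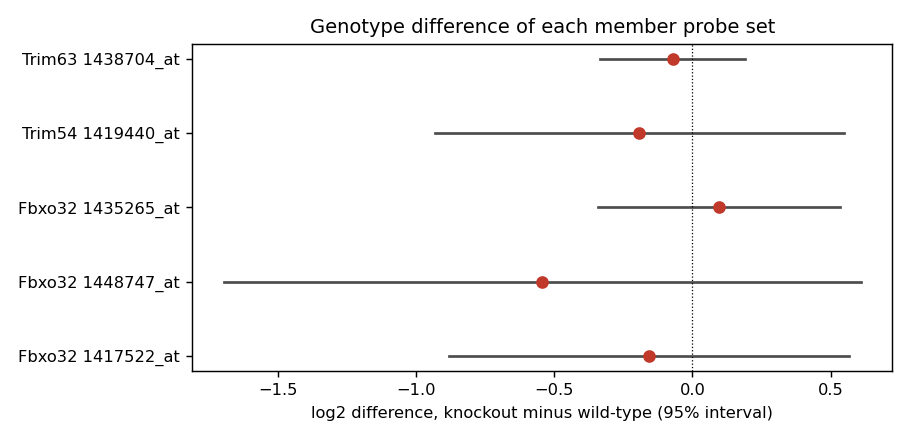
Log2 difference, knockout minus wild-type (horizontal axis, red point), with its 95% interval (grey line) for each member probe set. All 5 intervals include 0, the narrowest being Trim63 (-0.33 to 0.19) and the widest Fbxo32 1448747_at (-1.69 to 0.61).

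**Figure D3:**
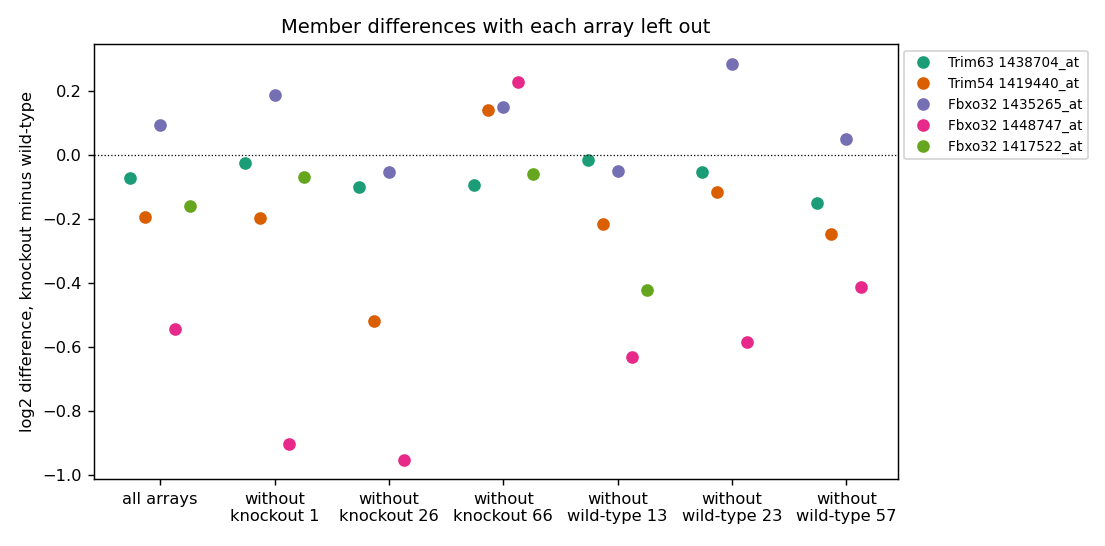
Log2 difference, knockout minus wild-type (vertical axis), of each member probe set with all arrays and with each array left out in turn (horizontal axis). Trim63 stayed below 0 throughout (-0.15 to -0.01), and Trim54 and Fbxo32 1448747_at crossed 0 without knockout 66. Fbxo32 1435265_at crossed 0 without knockout 26 and without wild-type 13 (-0.05 in each). Fbxo32 1417522_at has no point where it fell below the filter.

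The arrays on which the members were high or low differed from gene to gene. Knockout 26 was the highest knockout array for all 5 probe sets. Knockout 66 was the lowest of all 6 arrays for Trim54 and for Fbxo32 1448747_at, but neither lowest nor highest for Trim63 or for the brightest Fbxo32 probe set. The genes with the most similar profile over the 6 arrays, by Pearson's r of the log2 values among 11660 genes, are given as a description only, since the arrays are few and share genotype and scaling. For Trim63 they were Ppib (r = 0.987, Spearman's rho = 1), Tmem19 (0.985, 0.943) and Dock10 (0.984, 0.943). For Trim54 they were Pard6a (r = 0.991, rho = 1), Tnfrsf19 (0.985, 0.829) and Ubr1 (0.985, 0.829), and for Fbxo32 they were Vsnl1 (r = 0.991, rho = 0.943), Cdkal1 (0.990, 1) and Paxbp1 (0.982, 0.829). When the 2 arrays farthest from the median were left out, r for Trim54 and Ubr1 was 0.799, and it lay between 0.891 and 0.998 for the other 8 pairs. An r over 0.9 was reached by 29 genes for Trim63, 146 for Trim54 and 33 for Fbxo32, and an r under -0.9 by 29, 146 and 35.

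Other genes of the pathway were taken from 5 lists, with 1 value a gene, that of its brightest probe set above the filter and with 1 symbol. Over all 11661 genes, 0 were called (0%) and 547 (4.69%) had an unadjusted p under 0.05, the median log2 difference was 0.00, 49.6% were below 0 and 50.4% above, and the genotypes did not overlap in 10.9%. In the 5 lists, 0 genes were called, and the adjusted p in limma of every gene named from them was 0.974 or higher. Values below are mean signals ± SD, n = 3 per genotype, with the log2 difference ± SE in parentheses. Without knockout 66, the splits of genes above and below 0 were 5 and 13 for other ligases, 11 and 1 for the conjugation and SCF genes, 3 and 13 for upstream regulators, and 6 and 13 for substrates and partners.

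Other ubiquitin ligases of muscle lay on both sides of 0. Of 23 listed, 18 were measured above the filter: 7 were above 0 and 11 below, with a median of -0.06, and 2 had an unadjusted p under 0.05, 1 in each direction. With 1 array left out the median ran from -0.02 (without wild-type 13) to -0.10 (without wild-type 57). Fbxo30, an F-box protein known as MUSA1 and linked to atrophy in skeletal muscle, read 688 ± 20.3 in knockout against 557 ± 40.9 in wild-type (0.30 ± 0.13 on the log2 scale). All 3 knockout arrays lay above all wild-type arrays, but the 3 further Fbxo30 probe sets above the filter gave -0.09 to 0.04. Nedd4, a HECT ligase, read 2768 ± 222 in knockout against 3244 ± 73.3 in wild-type (-0.23 ± 0.10). The knockout range lay wholly below the wild-type range, and the further 2 Nedd4 probe sets gave -0.37 and -0.05. Without wild-type 57 the Nedd4 value was -0.50, from a second probe set that was then the brighter one, where the first gave -0.25. The genotypes overlapped for Klhl41, a muscle substrate adaptor of Cullin 3 (-0.36 ± 0.21, or -0.21 without wild-type 23). They also overlapped for the chaperone-linked ligase gene Stub1 (0.19 ± 0.12), which was 0.12 without wild-type 57 and whose second probe set gave -0.01.

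The next list held the ubiquitin-conjugating enzymes, which both ligase types need, and the SCF core of the F-box type. By brightest probe set it spanned the narrowest range of differences of the 5 lists. Of 17 listed, 12 were measured above the filter: 10 were above 0 and 2 below, within a range of -0.03 to 0.16, with a median of 0.03 and 0 at an unadjusted p under 0.05. Without knockout 1 the split was 5 above and 7 below, without wild-type 57 it was 4 above and 8 below, and after quantile normalization, which forces 1 common signal distribution on the arrays, it was 6 and 6. With probe sets averaged per gene the split was 7 above and 5 below, with a median of 0.0011. Further probe sets of these genes above the filter gave differences from -0.64 to 0.16. Ube2d1 read 854 ± 21.5 in knockout against 765 ± 65.3 in wild-type (0.16 ± 0.12), and Ube2d3 read 4448 ± 289 in knockout against 4091 ± 96.7 in wild-type (0.12 ± 0.09). The Ube2d3 difference was 0.07 without knockout 1, and its 6 further probe sets gave -0.12 to 0.07. Both encode E2 enzymes of the UbcH5 type. The difference of Ube2v1, a partner of Ube2n in making lysine-linked ubiquitin chains, was 0.10 ± 0.14, or -0.03 without knockout 1 and 0.22 without knockout 66, and that of the E2 gene Ube2g1 was 0.06 ± 0.10, or 0.02 without wild-type 57.

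Upstream regulators of the ligase genes mostly had differences below 0, and 0 were called. The list holds genes that raise the ligase genes and genes of the insulin and IGF signalling that restrains them. Genes of both kinds were below 0, so the split gives no direction for the input to the ligase genes. Of 21 listed, 16 were measured above the filter: 13 were below 0 and 3 above, with a median of -0.16, and 2 had an unadjusted p under 0.05. The genotypes did not overlap in 4 of the 16, where they did not overlap in 10.9% of all genes. The count below 0 was 11 to 14 with any 1 array left out. Without the filter, 13 of 19 were below 0 and 6 above, with a median of -0.10. Nr3c1, the glucocorticoid receptor, through which steroids raise Trim63 and Fbxo32 in muscle, read 226.9, 209.1 and 200.2 in knockout against 276.3, 302.6 and 316.8 in wild-type. The highest knockout array was below the lowest wild-type array, and the difference was -0.46 ± 0.17 (unadjusted p in limma 0.0183). A second Nr3c1 probe set went the other way, at 0.34. Hdac4 is a histone deacetylase linked, with Dach2 and Myog, to the control of these genes in denervated muscle. It read 87.5 ± 17.6 in knockout against 147 ± 34.9 in wild-type (-0.65 ± 0.28, or -0.52 without knockout 66). The knockout mean lay below the filter level of 95.2, and with the filter at the 70th percentile Hdac4 gave no value. Its second probe set, at -0.09 with all arrays, became the brighter one without wild-type 23 (-0.13) or wild-type 57 (-0.07), where the first gave -0.72 and -0.49.

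Foxo3, a FoxO factor that activates Fbxo32 in muscle, read 361.8, 334.2 and 371.4 in knockout against 494.5, 396.7 and 420.8 in wild-type. The genotypes did not overlap, and the difference was -0.28 ± 0.15 with an unadjusted p in limma of 0.0911. It was -0.19 without wild-type 13 and -0.31 without knockout 66. A second Foxo3 probe set was the brighter one in those fits and gave -0.14 and -0.01. Hdac5 read 297 ± 54.8 in knockout against 403 ± 118 in wild-type (-0.40 ± 0.22), and the genotypes overlapped. Its difference was -0.18 without wild-type 13 and -0.25 without knockout 1. Dach2, Klf15 and Myog were below the filter and gave no value in the main fit. Klf15 read 82, 59.3 and 90.3 in knockout against 48.8, 30.3 and 19.3 in wild-type, without overlap. The genotypes overlapped for Dach2 and Myog.

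Known substrates and binding partners of the ligases gave a median of -0.04, with 8 of the 19 measured (20 listed) above 0 and 11 below, and 2 at an unadjusted p under 0.05. After quantile normalization the split was 1 above 0 and 18 below, with a median of -0.12. With 1 array left out the median ran from -0.02 (without knockout 26) to -0.14 (without wild-type 57, 6 above and 13 below), and it was -0.0016 once _x_at and _s_at probe sets were dropped. Myl2, the ventricular regulatory light chain, read 22206 ± 2884 in knockout against 18772 ± 526 in wild-type without overlap (0.23 ± 0.10), but its difference was -0.02 after quantile normalization and 0.13 without knockout 66, where the unadjusted p in limma was 0.118. Fhl2, a LIM protein that binds MuRF3, read 984 ± 77.3 in knockout against 1185 ± 18.7 in wild-type, also without overlap (-0.27 ± 0.11). Sqstm1, the autophagy receptor p62 that meets MuRF2 at the titin kinase, read 671.5, 646 and 886.5 in knockout against 936, 913.5 and 870.6 in wild-type. The first 2 values lay below all wild-type arrays, and the difference was -0.31 ± 0.14, or -0.45 without knockout 66. Tnnt2, cardiac troponin T, gave -0.15 ± 0.09, or -0.29 after quantile normalization. Its further 2 probe sets gave -0.03 and 0.09, and the average over its 3 probe sets was -0.03.

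Other transcripts of the FoxO and atrophy programme lay on both sides of 0 around a median of -0.02, with 4 of 12 above 0 and 8 below, or 6 and 6 after centring on array medians and without knockout 66. The median was 0.01 without knockout 66 and -0.10 without knockout 1. The genotypes did not overlap in 6 of the 12, where they did not overlap in 10.9% of all genes, and 2 had an unadjusted p under 0.05. Map1lc3b, the autophagosome protein LC3B, read 1629.3, 1432.9 and 1084 in knockout against 1881.3, 2023.4 and 1859.3 in wild-type. Its difference was -0.49 ± 0.15, or -0.33 without knockout 66. The knockout range was wholly below the wild-type range, while the further 2 Map1lc3b probe sets were at -0.03 and 0.03. On the other side were Bnip3, Cited2 and Pdk4. Bnip3, a mitophagy gene, read 3442.2, 3592.6 and 3663.1 in knockout against 2912.5, 2922.5 and 2792.7 in wild-type (0.31 ± 0.09). Cited2, a transcriptional coregulator, read 1505 ± 126 in knockout against 1277 ± 58.0 in wild-type (0.23 ± 0.11), and Pdk4, a kinase that inhibits pyruvate dehydrogenase, read 220 ± 17.9 in knockout against 184 ± 20.3 in wild-type (0.24 ± 0.19). None of the 3 overlapped between genotypes.

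**Figure D4:**
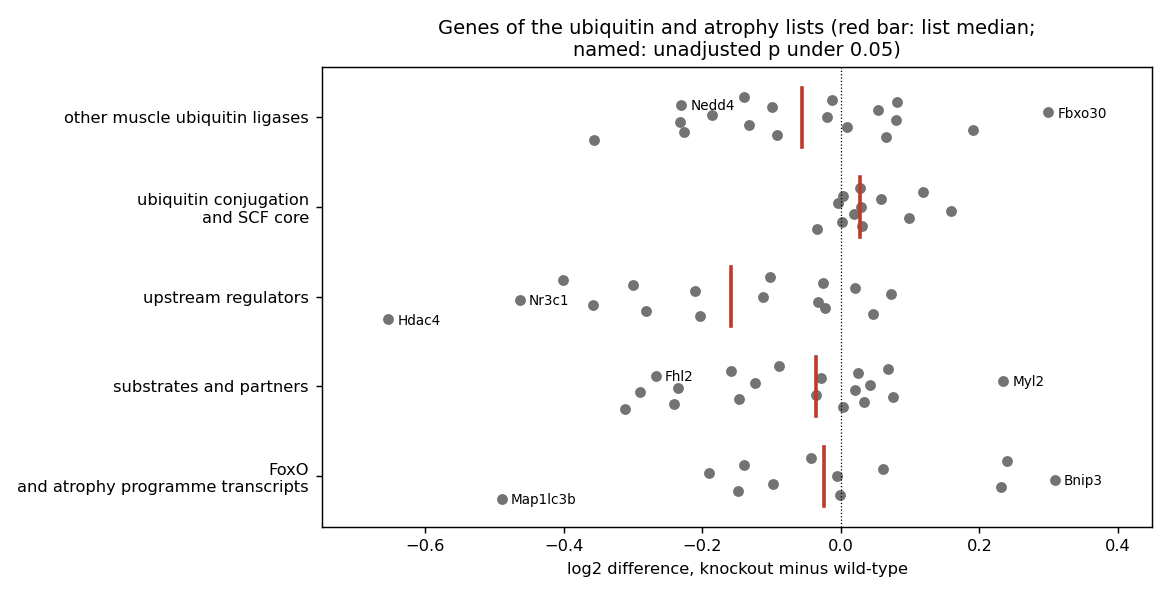
Log2 difference, knockout minus wild-type (horizontal axis), of each measured gene (grey point) in 5 lists (rows), with the list median as a red bar. Vertical scatter within a row has no meaning, names mark genes with an unadjusted p under 0.05, and the medians run from -0.16 for upstream regulators to 0.03 for the conjugation and SCF genes; Myl2 turns to -0.02 after quantile normalization.

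Cushion mesenchyme and outflow tract, another cell population of the heart, gave the only marker list whose summed signal did not overlap between genotypes. Of 8 on the list, 8 passed the filter, 7 were below 0 and 4 had an unadjusted p under 0.05. Their summed signal was 2887 to 3432 in knockout and 4217 to 4511 in wild-type, with no overlap (two-sided exact permutation p = 0.1, the smallest that 3 against 3 arrays can give). None was at 0. Their part, and that of RNA quality, in the values of Nr3c1, Hdac4, Foxo3 and Map1lc3b was not tested. The skeletal muscle markers that passed summed to 1264 to 1811 in knockout and 1496 to 1509 in wild-type.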

How the data were processed

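RNA of E11.5 mouse ventricle, 500 ng per sample, was amplified, biotin-labelled and hybridised to an Affymetrix mouse genome array, per the labels. The deposited values are linear probe set intensities made by the authors; the submitters' processing notes name GCOS and MAS5 without a version or settings. No detection calls were used here. Each array had a 2% trimmed mean of 250. Intensities were taken as log2(intensity + 16). Control probe sets (64) and probe sets whose mean log2 value was not above the median were left out, and the rest were fitted in limma 3.58.1 (R 4.3.3; lmFit, eBayes with trend, two-sided, Benjamini-Hochberg). Gene results are the brightest kept probe set's, adjusted over genes.

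The members and gene lists were chosen with earlier results of these data known. Genes named are all member probe sets, up to 4 per list by smallest p, and the 3 most similar profiles per member. The script was first checked on simulated data with known changes. Precision is limited by the number of arrays, 3 per genotype (median SE 0.21 on the log2 scale). Alternatives were other pseudocounts, filters, normalizations, eBayes settings and array weights, probe set choices and leaving out each array. Other lists were of cell type markers. Atrial markers entered only beside Fbxo32, and endothelial, epicardial, erythroid and liver markers did not enter a result. The medians of these lists, in that order, were -0.19, 0.06, 0.03, 0.06 and, for the 1 liver and foregut marker kept, -0.68. Figures used Matplotlib 3.10.9 (Python 3.11.15).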

Additional observations from a re-analysis of the deposited data

How the results depend on the processing

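Trim63 kept its direction in all 17 alternatives, between -0.15 and -0.01, and no member passed an adjusted p of 0.05 in any. Trim54 was 0.18 with array quality weights, and -0.52 (without knockout 26) to 0.14 (without knockout 66) with 1 array left out. Fbxo32 was -0.20 with the mean of its kept probe sets. By its brightest probe set, Fbxo32 was -0.052 (without knockout 26) to 0.29 (without wild-type 23) with 1 array left out. The cause of these reversals was not tested, beyond the arrays and probe sets named. With the filter at the 70th percentile Trim54 was left out and gave no value. Over all features, array quality weights called 6 probe sets and 8 genes. Leaving out 1 array called 0 to 2 probe sets and 0 to 2 genes, with 2 of each without knockout 1 and 1 gene without knockout 66. Of the 20 list genes named, 0 passed in any alternative. Myl2 was -0.024 after quantile normalization, Ube2d3 -0.0029 with its probe sets averaged, and Ube2v1 -0.096 once _x_at and _s_at probe sets were dropped, and -0.033 (without knockout 1) to 0.22 (without knockout 66) with 1 array left out. With probe sets averaged per gene, Nr3c1 was -0.06, Map1lc3b -0.16 and Fbxo30 0.04. List medians under each setting were added after seeing the data. No paired analysis was possible because the genotypes share no replicate number.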
